A study of Homo sapiens with 6 samples.

Results

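A set of 10 genes of the FGF, PDGF and VEGF systems was followed in cells of H358, a human lung cancer line kept in culture (non-small cell type). They were the receptor genes FGFR1, FGFR2, FGFR3, FGFR4, PDGFRA, PDGFRB and KDR, the ligand genes FGF2 and PDGFC, and FGFBP1, which encodes an FGF carrier. All 10 were found among the 18417 genes measured, each by a single probe set annotated to that gene alone. The cells stably expressed TwistER (3 arrays) or green fluorescent protein (GFP, 3 arrays), and both lines received 100 nM 4-hydroxytamoxifen (4OHT) for 12 days. TwistER constructs fuse the transcription factor Twist to a 4OHT-responsive part of the estrogen receptor. The titles place the TwistER arrays after, and the GFP arrays before, epithelial-mesenchymal transition (EMT). Neither the promoter of either construct nor whether a line was 1 clone is stated in the labels. TwistER cells without 4OHT are not analysed here, so activation of the factor and other differences between the lines cannot be told apart.

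All 4 FGF receptors are membrane tyrosine kinases that bind FGFs together with heparan sulfate, and they signal through the docking protein FRS2 to the ERK and PI3K pathways. PDGF receptors respond to dimeric PDGFs and are best known from fibroblasts, pericytes and other mesenchymal cells. KDR, also called VEGFR2, is the main signalling receptor for VEGFA and is known chiefly from endothelial cells. In the lung, FGF signals pass between epithelium and mesenchyme, while PDGFRA marks mesenchymal cells.

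In TwistER cells KDR and PDGFRA rose and FGFBP1 fell, and the FGF receptors, PDGFRB, FGF2 and PDGFC did not pass the test. Values are log2 expression on the authors' RMA scale, where a difference of 1 is a doubling, and differences are TwistER minus GFP. A gene is said to have risen or fallen only at an adjusted p under 0.05, from limma with Benjamini-Hochberg adjustment over all genes. Of the 10 genes, 2 rose (4.72% of all genes did) and 1 fell (4.11% of all genes did). Together 3 of 10 passed, where 8.83% of all genes passed. With 10 genes this comparison of shares is coarse. The median difference was 0.11 over the 10 genes and 0.01 over all genes.

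Over all genes, arrays correlated at r = 0.993 to 0.995 within TwistER, 0.982 to 0.996 within GFP and 0.968 to 0.980 between the groups. GFP replicate 1 stood apart from GFP replicates 2 and 3 (r = 0.982 with each, against r = 0.996 between those). Array medians of all probe sets ran from 4.99 to 5.03 in TwistER and from 4.95 to 4.99 in GFP. Epithelial markers were checked as the defining genes of the line: their mean was 6.72 to 6.78 in the TwistER arrays and 8.79 to 9.37 in the GFP arrays. Of these 6 markers 5 fell (4.11% of all genes did), among them CDH1, EPCAM, KRT19 and CLDN4, with differences of -4.99, -3.28, -3.22 and -1.07. With 3 arrays a group, precision is limited by their number.

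Promoter sequences are shown for the 3 genes that changed, so that the stretch before each start can be set beside its values. They are RefSeq sequences of GRCh38.p14, 250 bases up to the annotated start, 5′ to 3′ on the gene's strand. Capitals mark CANNTG, the E-box letters that Twist and other basic helix-loop-helix factors are known to bind; the motif reads the same on both strands.
FGFBP1 (chr4:15938741-15938990, minus strand): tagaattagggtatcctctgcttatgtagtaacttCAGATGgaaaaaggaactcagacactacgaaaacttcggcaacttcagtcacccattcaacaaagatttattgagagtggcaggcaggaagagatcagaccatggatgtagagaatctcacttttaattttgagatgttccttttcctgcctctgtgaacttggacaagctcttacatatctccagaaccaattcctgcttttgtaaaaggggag
KDR (chr4:55125596-55125845, minus strand): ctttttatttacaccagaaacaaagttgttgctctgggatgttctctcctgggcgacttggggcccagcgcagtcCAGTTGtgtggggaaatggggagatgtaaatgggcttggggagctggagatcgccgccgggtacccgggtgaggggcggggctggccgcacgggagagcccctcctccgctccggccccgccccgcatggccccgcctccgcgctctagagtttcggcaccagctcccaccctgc
PDGFRA (chr4:54229043-54229292, plus strand): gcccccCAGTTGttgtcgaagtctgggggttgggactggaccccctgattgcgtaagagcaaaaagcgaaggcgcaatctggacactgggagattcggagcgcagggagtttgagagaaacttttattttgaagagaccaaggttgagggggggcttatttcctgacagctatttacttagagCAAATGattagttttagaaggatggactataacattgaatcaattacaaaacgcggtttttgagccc
Each of these windows holds CANNTG, as do 61.8% of 35116 promoter windows of the same length, and as a description the match is common. There was 1 match before FGFBP1, 1 before KDR and 2 before PDGFRA. A later PDGFRA start (chr4:54233710-54233959) also had 1. Base composition differed: the FGFBP1 window was 40.8% G or C with 2 CG pairs, the KDR window 65.2% with 17, and the first PDGFRA window 46.8% with 8. The window of the later PDGFRA start was 64.0% with 25. The median over all windows was 58.0% with 11 CG pairs. The GC-box letters GGGCGG, on either strand, occurred 2 times before KDR and 2 times before the later PDGFRA start. They occurred 0 times before FGFBP1 and the first PDGFRA start, and 42.6% of all windows hold them. The AP-1 letters TGANTCA (6.57% of windows) occurred once, before PDGFRA. TATAAA (10.7% of windows) occurred in none of the windows of these 3 genes. Windows of 8 of the 10 genes were used: FGFR1 was left out of this step, and PDGFC had no entry. Those of FGF2 and FGFR3 held 0 CANNTG, as did some of the FGFR2 windows. These matches are letters in a window and say nothing of binding.

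The VEGF receptor gene KDR showed the largest rise among the 10. It read 6.81, 6.72 and 6.62 in the TwistER arrays and 4.92, 5.06 and 4.79 in the GFP arrays. The groups lay far apart, with little spread inside either. KDR averaged 6.72 ± 0.10 in TwistER and 4.92 ± 0.14 in GFP (SD, n = 3 each), which is 3.47-fold higher (difference 1.79 ± 0.12 SE, 95% interval 1.52 to 2.06, limma adjusted p = 5.6e-05). The GFP mean was below the median of all genes, 5.45, a range where background light compresses differences, and the TwistER mean was above it. In bulk RNA, more cells with a transcript and more transcript per cell cannot be told apart.

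PDGFRA, which encodes the PDGF receptor that binds PDGF-AA and PDGF-CC, rose to about 2 times its GFP level. PDGFRA read 5.26, 5.26 and 5.28 in the TwistER arrays and 4.24, 4.05 and 4.49 in the GFP arrays. The TwistER arrays were nearly identical, and the groups did not overlap. The means were 5.27 ± 0.01 in TwistER and 4.26 ± 0.22 in GFP (SD, n = 3 each), a 2.01-fold rise (1.01 ± 0.13 SE, limma adjusted p = 0.00197). Both means were below the median of all genes, so this remained a dim transcript in both lines. PDGFRB, the sister receptor that prefers PDGF-BB and PDGF-DD, read 4.49, 4.11 and 4.43 in the TwistER arrays and 4.26, 4.13 and 4.46 in the GFP arrays. Its groups overlapped fully, and the difference of 0.06 ± 0.14 SE did not pass (limma adjusted p = 0.872, 95% interval -0.27 to 0.38). PDGFRB averaged 4.34 in TwistER and 4.28 in GFP. These means and the GFP mean of PDGFRA lay near the lower quartile of all genes, 4.19, where background light compresses differences. Within each array, PDGFRA minus PDGFRB was 0.93 ± 0.20 in TwistER and -0.02 ± 0.06 in GFP (SD, n = 3 each). That ratio moved by 0.95, with a 2-sided exact permutation p = 0.1, the smallest that 3 arrays against 3 can give.

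**Figure D1:**
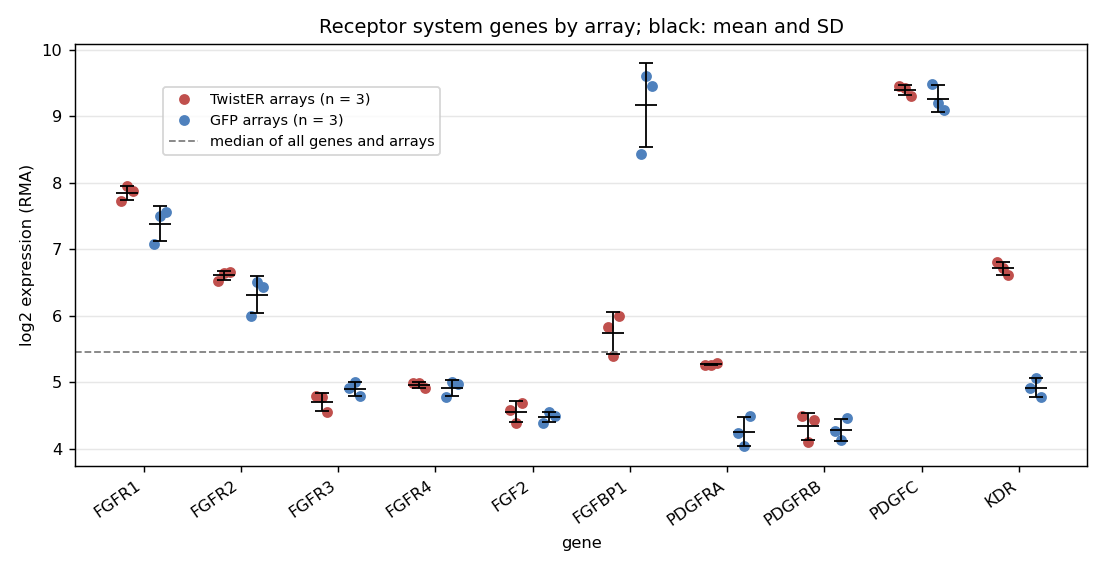
Log2 expression (vertical axis) of the 10 genes in the 3 TwistER arrays (red, left) and the 3 GFP arrays (blue, right), with the mean and SD in black and the median of all genes dashed. KDR and PDGFRA sit higher and FGFBP1 lower in TwistER, and the first GFP point of FGFBP1, 8.44, lies below the other GFP points.

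FGFBP1 encodes a secreted protein that releases FGFs from the matrix and presents them to receptors. It read 5.83, 5.39 and 6.0003 in the TwistER arrays and 8.44, 9.60 and 9.46 in the GFP arrays. The lowest GFP array, replicate 1, was still well above every TwistER array. FGFBP1 averaged 5.74 ± 0.31 in TwistER and 9.16 ± 0.63 in GFP (SD, n = 3 each), 10.7-fold lower (difference -3.42 ± 0.30 SE, limma adjusted p = 0.000235). Without GFP replicate 1 the difference was -3.79 (limma adjusted p = 3.23e-05). FGF2, a ligand that FGFBP1 is known to carry, read 4.59, 4.39 and 4.70 in the TwistER arrays and 4.39, 4.55 and 4.50 in the GFP arrays. These values overlapped and were dim in both lines, with a difference of 0.08 ± 0.12 SE (limma adjusted p = 0.792, 95% interval -0.20 to 0.35).

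None of the 4 FGF receptor genes passed the test. FGFR1, the FGF receptor best known from mesenchymal cells, read 7.73, 7.94 and 7.87 in the TwistER arrays and 7.08, 7.505 and 7.56 in the GFP arrays. Every TwistER array was above every GFP array. The difference of 0.47 ± 0.15 SE nevertheless missed the threshold (limma adjusted p = 0.1, 95% interval 0.13 to 0.80). FGFR2, whose splice forms are known to differ between epithelium and mesenchyme, read 6.53, 6.64 and 6.65 in the TwistER arrays and 5.99, 6.51 and 6.44 in the GFP arrays. Its groups were separated by a narrow gap, since GFP replicate 2 nearly reached the lowest TwistER array. The difference was 0.29 ± 0.15 SE and did not pass (limma adjusted p = 0.315). GFP replicate 1 was the lowest array for both genes, and without it the difference was 0.32 for FGFR1 and 0.13 for FGFR2 (limma adjusted p = 0.0834 and 0.418). The deposited values give 1 level per gene, so the splice forms of FGFR2 could not be compared.

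FGFR3 and FGFR4, kinases of the same family, were below the median of all genes in both lines. FGFR3 read 4.79, 4.78 and 4.55 in the TwistER arrays and 4.91, 5.01 and 4.79 in the GFP arrays. The groups touched, with the lowest value in a TwistER array, and the difference of -0.19 ± 0.12 SE did not pass (limma adjusted p = 0.418). FGFR4 read 4.99, 4.99 and 4.92 in the TwistER arrays and 4.78, 5.01 and 4.97 in the GFP arrays. Its difference was 0.05 ± 0.11 SE (limma adjusted p = 0.867, 95% interval -0.20 to 0.30). In all, TwistER and GFP arrays did not overlap for 5 of the 10 genes (28.4% of all genes): KDR, PDGFRA, FGFR1 and FGFR2 on the higher side (13.9% of all genes) and FGFBP1 on the lower side (14.5% of all genes).

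PDGFC encodes a PDGF that is secreted in a latent form and binds PDGFRA after cleavage. It read 9.45, 9.43 and 9.31 in the TwistER arrays and 9.48, 9.20 and 9.09 in the GFP arrays, well above the median of all genes in both lines. The highest single value was a GFP array, and the difference of 0.14 ± 0.13 SE did not pass (limma adjusted p = 0.629, 95% interval -0.16 to 0.43). 

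**Figure D2:**
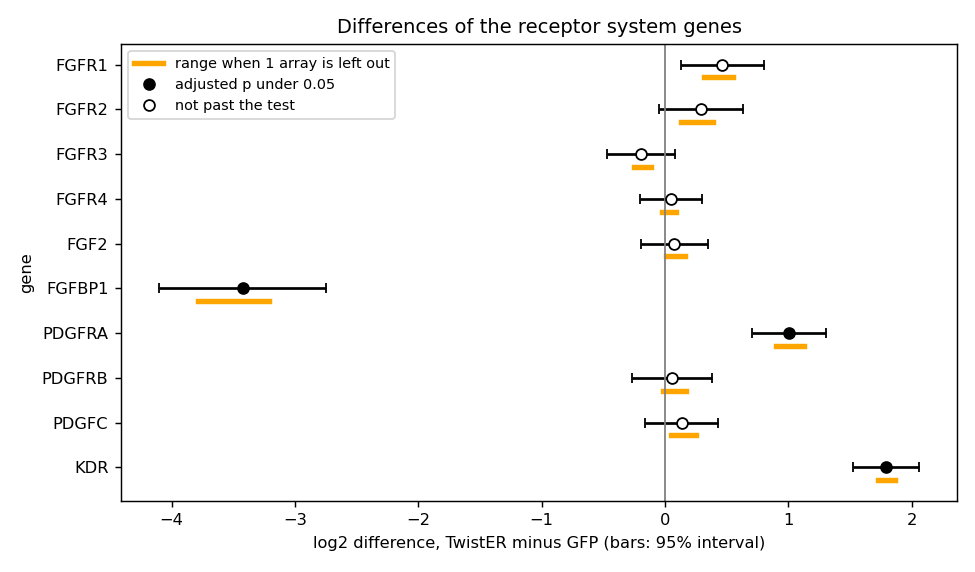
Log2 difference, TwistER minus GFP (horizontal axis), of each gene with its 95% interval; filled points passed at an adjusted p under 0.05, and orange bars span the differences obtained when 1 array at a time is left out. The intervals of KDR, PDGFRA and FGFBP1 lie far from 0, and FGFR1 is the only open point whose interval does not include 0.

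Pairs of receptors were also compared inside each array, which cancels shifts that an array shares. Only the change of such a ratio between the lines can be read, since its level depends on the probes. FGFR1 minus FGFR3 was 2.94, 3.16 and 3.32 in the TwistER arrays and 2.17, 2.50 and 2.77 in the GFP arrays, a change of 0.66. FGFR1 minus FGFR2 was 1.20, 1.30 and 1.22 in the TwistER arrays and 1.09, 0.995 and 1.12 in the GFP arrays, a change of 0.17. GFP replicate 1, the lowest array for both FGFR1 and FGFR2, lay between the other GFP arrays in their ratio. Changes were 0.49 for FGFR2 minus FGFR3, 0.42 for FGFR1 minus FGFR4, 0.25 for FGFR2 minus FGFR4 and -0.24 for FGFR3 minus FGFR4. All 7 pairs had a 2-sided exact permutation p = 0.1, also after adjustment over the 7, which is the smallest this design allows, so none could pass. That value means only that the groups did not overlap in these ratios. The FGF receptor pairs reuse the same genes, so they are not separate results. How often other pairs of genes separate in this way was not tested.

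**Figure D3:**
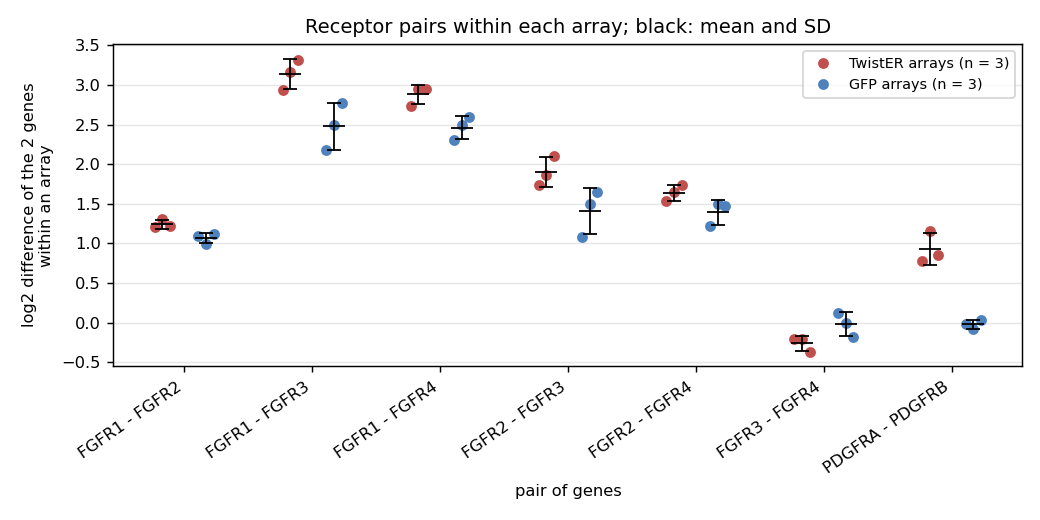
Log2 difference of 2 receptor genes within an array (vertical axis) for 7 pairs, in TwistER arrays (red, left) and GFP arrays (blue, right), with mean and SD in black. PDGFRA minus PDGFRB shows the widest separation, 0.93 in TwistER and -0.02 in GFP; the height of a pair depends on its probes.

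By position, 6 of the 10 genes lie on chromosome 4 (FGFR3, FGFBP1, PDGFRA, KDR, FGF2 and PDGFC). FGFR4 and PDGFRB lie on chromosome 5, FGFR2 on chromosome 10 and FGFR1 on chromosome 8. PDGFRA and KDR are separated in RefSeq by 1 protein-coding gene, KIT, which encodes the receptor for stem cell factor. These neighbours were examined after the values of PDGFRA and KDR were known. KIT read 4.62, 4.62 and 4.91 in the TwistER arrays and 4.68, 4.01 and 3.86 in the GFP arrays. GFP replicate 1 was among the TwistER values and the other GFP arrays were lower. KIT had a difference of 0.54 ± 0.21 SE that did not pass (limma adjusted p = 0.18). With GFP replicate 1 left out KIT passed, at 0.78 (limma adjusted p = 0.00604), and it passed with no other array left out. Without GFP replicate 1, 2773 of all genes passed, against 1627 with all 6 arrays.

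The 3 measured genes on either side of this cluster were also examined. CHIC2 had a difference of 0.59 ± 0.21 SE (limma adjusted p = 0.132), and 0.84 without GFP replicate 1, where it passed (limma adjusted p = 0.00267). CHIC2 passed with no other array left out. The differences of LNX1, GSX2, TMEM165, CLOCK and PDCL2 ran from -0.08 to 0.07 and none passed. Of the 9 genes, PDGFRA and KDR were those that rose.

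**Figure D4:**
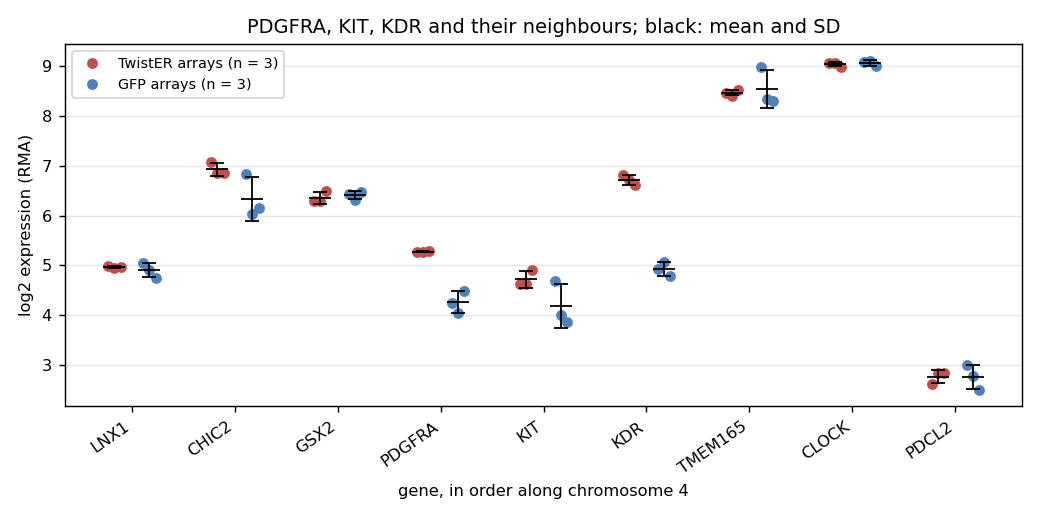
Log2 expression (vertical axis) of 9 genes in their order along chromosome 4, in TwistER arrays (red, left) and GFP arrays (blue, right), with mean and SD in black. PDGFRA and KDR are higher in TwistER, KIT between them overlaps because of GFP replicate 1 at 4.68, and CHIC2 is higher without passing the test.

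Genes whose values ran most like those of the 3 changed genes were sought over the 6 arrays. Likeness was the root mean square distance between patterns, each gene's values minus its mean. Nearest to KDR were MAN1A1, a Golgi mannosidase (distance 0.08), and LIMCH1, an activator of non-muscle myosin (0.08). MAN1A1 rose by 1.79 and LIMCH1 by 1.91. FGFBP1 was most closely followed by TSPAN1, a tetraspanin (distance 0.14), and KLK6, a secreted serine protease (0.28). TSPAN1 fell by 3.67 and KLK6 fell by 3.19, and in both GFP replicate 1 was the lowest GFP array (7.43 and 7.13). PDGFRA was followed by CDH18, a cadherin (0.06), and MINAR1 (0.07), which rose by 0.97 and 0.96. The number of arrays is small, and these distances are descriptions.

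Other genes of the pathways were taken from lists that leave out the 10. Of 79 listed, 75 were measured, of which 13 rose and 2 fell, beside 4.72% and 4.11% of all genes. The counts of each list below are to be read beside these same shares. For lists this short the comparison is coarse. SDC4, FRS2, ESRP1 and VEGFD were not used here. The number of listed genes that changed depended on the arrays: 18 without GFP replicate 1, and 6 to 8 when any other array was left out. These were 7 and 8 without GFP replicates 2 and 3, and 6, 6 and 7 without TwistER replicates 1, 2 and 3. The count over all genes moved in the same directions. It was 2773 without GFP replicate 1, against 1627 with all 6 arrays. It was below 1627 when any other array was left out, down to 831 without TwistER replicate 2. FGF9, SDC2, SPRED2, NRP1 and PGF passed in each of these 6 settings.

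Among 21 FGF ligand genes other than FGF2, 1 rose and 1 fell, with a median difference of 0.00. FGF9, a ligand with roles in mouse lung development, read 5.41, 5.38 and 5.20 in the TwistER arrays and 6.86, 6.54 and 6.68 in the GFP arrays, a 2.57-fold fall (-1.36 ± 0.12 SE, limma adjusted p = 0.000327). FGF9 was clearly separated between the lines. FGF5 read 5.15, 4.24 and 4.49 in the TwistER arrays and 3.95, 3.62 and 3.74 in the GFP arrays (0.86 ± 0.22 SE, limma adjusted p = 0.0492). The FGF5 call was lost without GFP replicate 2 or 3 or TwistER replicate 1 or 3 (highest adjusted p = 0.141, with differences of 0.59 to 0.93) and after cyclic loess or median centring (adjusted p = 0.0704 and 0.0679). FGF5 is dim, and the filter on dim genes left it out.

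Of 9 measured carriers and co-receptors of FGFs, 1 rose, 0 fell and the median was -0.02. That gene was SDC2, a heparan sulfate proteoglycan of the cell surface, at 9.13, 9.28 and 9.10 in the TwistER arrays and 7.73, 7.68 and 7.61 in the GFP arrays. Its 2.83-fold rise (1.499 ± 0.11 SE, limma adjusted p = 8.2e-05) was steady across arrays. Of the other FGFBP genes, FGFBP2 had a difference of 0.08 and FGFBP3 of -0.02, and neither passed (limma adjusted p = 0.864 and 0.95).

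Inside the cell, 2 of 9 measured FGF receptor adaptors rose, 0 fell and the median was 0.21. GAB1, a docking protein, rose by 0.59 ± 0.11 SE and SHC1, an adaptor to GRB2, by 0.53 ± 0.12 SE (limma adjusted p = 0.0131 and 0.0264). The GAB1 call was lost without GFP replicate 2 or 3 or TwistER replicate 1 or 2 (up to 0.0753), and that of SHC1 without GFP replicate 2 or any TwistER replicate (up to 0.104). As the mean of its probe sets, GAB1 rose by less, 0.40 (limma adjusted p = 0.0471).

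Of 13 feedback and target genes of FGF signalling, 3 rose, 0 fell and the median was 0.07. All 3 encode inhibitors, as do most of the 13 listed genes, and most of those inhibitors did not pass. SPRED2, which restrains RAS-ERK signalling, rose 1.70-fold (0.76 ± 0.12 SE, limma adjusted p = 0.00522). DUSP6, an ERK phosphatase, rose 1.67-fold (0.74 ± 0.15 SE, limma adjusted p = 0.0158) and IL17RD, an inhibitor of FGF signalling, 1.32-fold (0.40 ± 0.10 SE, limma adjusted p = 0.0457). DUSP6 lost its call without GFP replicate 2 or 3 or TwistER replicate 1 or 2 (up to 0.0803). IL17RD lost it on removal of each array except GFP replicate 1 (up to 0.159), after cyclic loess or median centring (0.0519 and 0.0693), and with the replicate block (0.0831). The target genes ETV1, ETV4 and ETV5 had differences of 0.06, -0.14 and 0.07, none past the test. SPRY1, SPRY2, SPRY3 and SPRY4 had -0.12, -0.24, -0.42 and 0.29, and none passed (limma adjusted p = 0.0846 for SPRY3). Among genes that did not pass, the TwistER arrays lay below the GFP arrays for SPRY2 and SPRY3. They lay above them for SPRY4 and FLRT3. The groups did not overlap for 28.4% of all genes.

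Among regulators of FGFR2 splicing, 1 of 3 rose and 1 fell, with a median of 0.24. ESRP2, which promotes the epithelial form of FGFR2, read 4.89, 5.02 and 4.42 in the TwistER arrays and 5.32, 6.45 and 6.10 in the GFP arrays, a 2.27-fold fall (-1.18 ± 0.28 SE, limma adjusted p = 0.0348). RBFOX2, another splicing factor that acts on these exons, rose 1.58-fold (0.66 ± 0.15 SE, limma adjusted p = 0.0327). GFP replicate 1 was the GFP array nearest to TwistER for ESRP2 and the farthest for RBFOX2. ESRP2 lost its call on removal of each array except GFP replicate 1 (up to 0.144); on removal of that one the difference was -1.4996. RBFOX2 lost it without GFP replicate 3 or any TwistER replicate (up to 0.119).

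On the PDGF side, 2 of 5 genes rose, 0 fell and the median was 0.46. PLAT, tissue plasminogen activator, which can cleave latent PDGF-CC, rose 1.71-fold (0.78 ± 0.15 SE, limma adjusted p = 0.0125), a call lost without TwistER replicate 2 or 3 (up to 0.0688). PDGFD, a ligand of PDGFRB, rose 1.40-fold (0.49 ± 0.11 SE, limma adjusted p = 0.0322), a call lost on removal of each array except GFP replicate 1 (up to 0.144). PDGFA read 5.35, 5.30 and 5.81 in the TwistER arrays and 5.39, 6.48 and 6.70 in the GFP arrays. GFP replicate 1 was at the level of TwistER, and the difference of -0.70 ± 0.32 SE did not pass (limma adjusted p = 0.245). With that array left out it passed, at -1.10 (limma adjusted p = 0.00542), and it passed with no other array left out. Without GFP replicate 1, 2773 of all genes passed, against 1627 with all 6 arrays. PDGFA was chosen after its values were seen.

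Of 7 receptors and ligands related to the PDGF receptors, KITLG, the ligand of KIT, was the 1 that rose, and 0 fell, with a median of 0.17. KITLG rose 1.55-fold (0.63 ± 0.14 SE, limma adjusted p = 0.0273), but lost its call after median centring (0.0534) and on removal of each array except GFP replicate 1 (up to 0.126). Without GFP replicate 1, 3 of these 7 rose. Over all genes 1283 rose in that setting, against 870 with all arrays.

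Among the VEGF partners of KDR, most genes did not pass. Of 8 ligand and receptor genes 2 rose and 0 fell (median 0.05). NRP1, neuropilin-1, a co-receptor that joins KDR in binding VEGFA, read 8.75, 8.75 and 8.66 in the TwistER arrays and 7.45, 8.05 and 7.93 in the GFP arrays, a 1.88-fold rise (0.91 ± 0.16 SE, limma adjusted p = 0.00893). PGF, placental growth factor, which binds the related receptor FLT1, rose 1.68-fold (0.75 ± 0.13 SE, limma adjusted p = 0.00766). VEGFA itself read 8.44, 8.47 and 8.31 in the TwistER arrays and 8.27, 8.67 and 8.68 in the GFP arrays, with a difference of -0.13 ± 0.14 SE (limma adjusted p = 0.677). The other VEGF receptor genes, FLT1 and FLT4, both had differences of -0.03 that did not pass (limma adjusted p = 0.926 and 0.932).

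**Figure D5:**
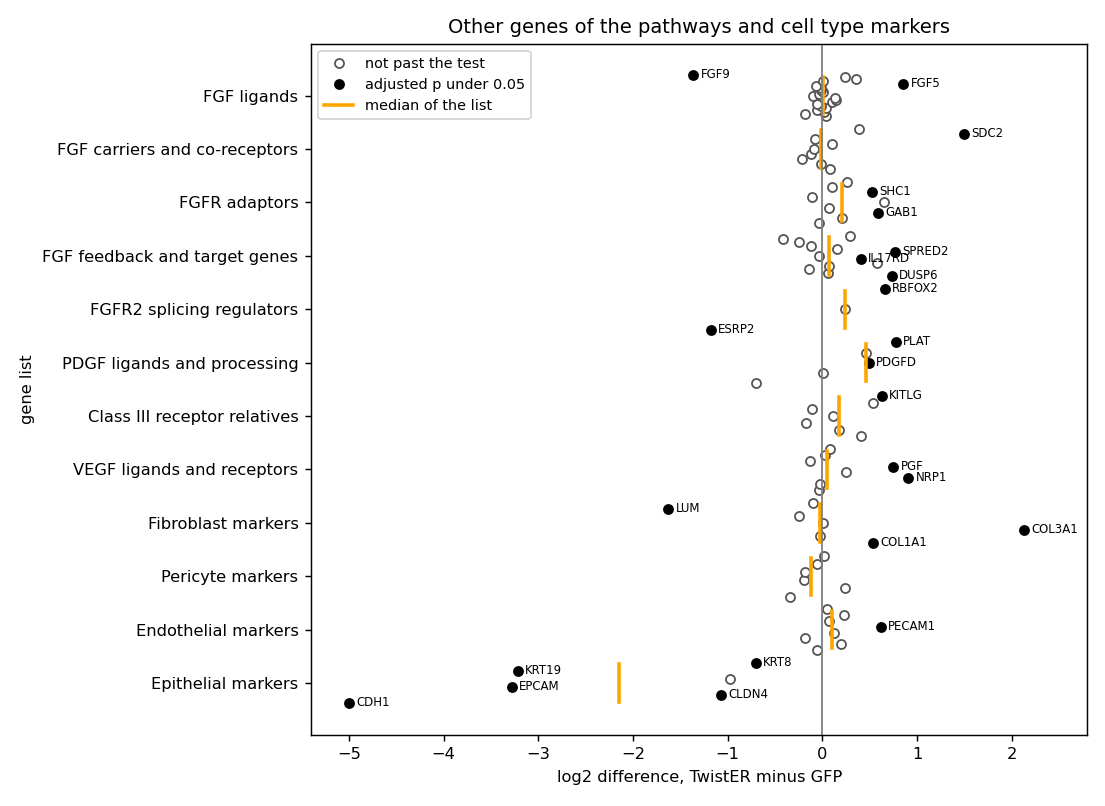
Log2 difference, TwistER minus GFP (horizontal axis), of every measured gene of the pathway and marker lists (1 point per gene; filled and named where the adjusted p was under 0.05), with the median of each list in orange. The medians of the 8 pathway lists run from -0.02 to 0.46, single genes such as SDC2 and FGF9 stand out, and the epithelial markers lie far to the lower side with a median of -2.14.

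Because KDR and PDGFRA are known from endothelial and mesenchymal cells, markers of such cells were read beside them. Of 8 endothelial markers 1 rose (4.72% of all genes did) and 0 fell (4.11% of all genes did). For so few markers a comparison with these shares is coarse. The mean of the 8 per array was 3.83 to 3.93 in TwistER and 3.75 to 3.76 in GFP. The gene that rose was PECAM1 (0.61 ± 0.12 SE, limma adjusted p = 0.0153), which lost its call without GFP replicate 2 or TwistER replicate 1 or 3 (up to 0.0765) and as the mean of its probe sets (0.0532). CDH5, TEK, TIE1, VWF, EMCN, ERG and CLDN5 had differences between -0.18 and 0.22 that did not pass, and the levels of all 8 markers over the 6 arrays, 2.89 to 5.26, were below the median of all genes.

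Of 6 pericyte markers 0 changed in limma, where 8.83% of all genes did. An unadjusted p under 0.05 was seen for 1 of them (CSPG4, 0.24 ± 0.10 SE, limma adjusted p = 0.232). The list had a median of -0.12 and an array mean of 5.14 to 5.20 in TwistER and 5.19 to 5.36 in GFP. Of 7 fibroblast markers 2 rose (4.72% of all genes did) and 1 fell (4.11% of all genes did), with a median of -0.03. Their array mean was 4.81 to 4.99 in TwistER and 4.78 to 4.85 in GFP. COL3A1, a fibrillar collagen, rose by 2.13 ± 0.15 SE and COL1A1 by 0.54 ± 0.13 SE, while the proteoglycan gene LUM fell by 1.63 (limma adjusted p = 7.6e-05, 0.0323 and 0.000889). COL1A1 no longer passed when an array besides GFP replicate 1 was left out (up to 0.142). DCN, THY1 and FAP, with differences of 0.01, -0.10 and -0.25, did not pass. The part of such cells in the rises of KDR and PDGFRA was not tested.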

How the data were processed

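Total RNA of 6 H358 cultures was hybridised as biotinylated material to an Affymetrix human gene array, per the labels' protocols. The deposited log2 values per probe set come from RMA run by the authors (per the submitters' processing notes), with its version and settings not given in the sources used here. That method brings the arrays to nearly the same distribution (medians here were 4.95 to 5.03), so a change in total RNA between the lines could be hidden. Probe sets with 1 gene symbol (19460 of 33297) were kept, and the brightest over all 6 arrays stood for each of 18417 genes. Names, chromosomes and promoters came from RefSeq (GRCh38.p14). Each of the 6 columns belongs to 1 sample, and no arrays were identical. The titles speak of biological replicates without saying how cultures were separated, so the p-values reflect only the spread among these arrays, which may be technical.

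The test was limma's moderated fit (version 3.58.1, R 4.3.3, 2-sided, without covariates). In simulated data of 18417 genes, it recovered 80% of genes shifted by 1 and 96% of those shifted by 2 on the log2 scale, with 10 calls among unshifted genes. The simulation used independent normal noise, no outlying array and a smaller share of shifted genes than was called here. These rates may therefore differ for the real arrays. Receptor pairs were tested with exact permutation (scipy 1.17.1). Genes named are the 10, up to 4 genes of each list past the threshold with the largest differences, and the 2 nearest patterns of each changed gene; others are named as examples chosen after their values were seen. The 10 genes and the lists were chosen with earlier results of these data known. Alternatives were 2 scalings, a filter on dim genes, the mean of probe sets, a trended robust variance, a replicate block, each array left out, and other thresholds.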

Additional observations from a re-analysis of the deposited data

How the results depend on the processing

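KDR, PDGFRA and FGFBP1 kept their direction and passed in all 14 alternatives. Their differences were 1.73 to 1.86, 0.90 to 1.12 and -3.79 to -3.21, with highest limma adjusted p of 0.000906, 0.0144 and 0.00257. The other 7 genes passed in none, with the lowest adjusted p at 0.0661 for FGFR1. These alternatives were not 14 separate checks. Only the scalings and the removal of an array changed the differences of these genes. Each had 1 probe set, so the mean of probe sets could not change its difference. A looser threshold could not remove a call, and a stricter one could not add any. Near 0, signs turned: with 1 array left out, FGFR4 ranged from -0.0230 (without GFP replicate 1) to 0.0919, and PDGFRB from -0.0193 (without GFP replicate 2, and likewise below 0 without TwistER replicate 1) to 0.174. So did neighbours on chromosome 4: LNX1 ranged from -0.00720 to 0.135, TMEM165 from -0.205 to 0.138, CLOCK from -0.0516 to 0.00370 and PDCL2 from -0.122 to 0.128.

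Over all genes, 1627 changed (870 rose, 757 fell). Leaving out 1 array gave 831 to 2773 (473 to 1283 rose, 358 to 1490 fell), the most without GFP replicate 1; the cause was not tested. At a threshold of 0.01 there were 807 (472 rose, 335 fell), and at 0.10 the falls numbered 1192. Of the pathway genes 15 changed, with 6 to 18 when 1 array was left out and 5 at 0.01. Deviations from the group mean correlated at r = 0.139, 0.015 and 0.157 between same-numbered replicates. Between differently numbered replicates r ran from -0.160 to 0.040. With 3 arrays a group this cannot show whether same-numbered samples belong together. With the replicate block 1592 genes, 3 of the 10 genes and 14 pathway genes passed. Both group means of FGF2, FGFR3, FGFR4, PDGFRA and PDGFRB were below the median of all genes, where background light compresses differences.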
